A study of Mus with 9 samples.

Results

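The 10 genes described here encode the calcium- and cAMP-driven signalling enzymes of memory and the transcription factor they act on: the CaM kinases Camk2a, Camk2b, Camk2d, Camk2g and Camk4, the protein kinase A catalytic subunit Prkaca, the calcineurin catalytic subunits Ppp3ca and Ppp3cb, and Creb1 with its coactivator Crtc1. They were chosen by gene symbol, and each of the 10 matched the whole symbol entry of 1 probe set (the group of short probes that measures 1 transcript cluster on the array), out of 21978 distinct symbol entries on 22206 probe sets. Hippocampal RNA came from 3 groups of mice with 3 Clariom S Mouse arrays each. SAMR1, the senescence-accelerated mouse resistant strain, and SAMP8, the senescence-accelerated prone strain with early memory decline, received vehicle (water in the methods, saline in the sample records). The third group was SAMP8 that took trigonelline (TG), a plant alkaloid, orally over 30 days at a daily dose of 5 mg/kg. The SAMP8 mice were 16 weeks old at the start of the study, and animals of every group went through 8 days of behavioral testing before the hippocampus was taken, with TG continued in the treated group. SAMR1 and SAMP8 are separate inbred lines that differ at many loci, so the strain comparison is not one of age or of a single gene.

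The values used are the authors' group averages on the log2 scale, 1 per group and gene. No spread between arrays could be computed from them, so the differences below are descriptions of averages without a test, and whether neighbouring averages differ beyond the variation between mice was not tested. The nontreated SAMP8 average enters both the strain comparison and the treatment comparison, with opposite sign, so the 2 differences of a gene are not independent, and a SAMP8 average that happens to be high makes the first more positive and the second more negative. A gene is called higher or lower past the limit when its averages differ by at least 1.5-fold, which is 0.585 on the log2 scale. As the tissue is bulk RNA, fewer cells of a type and less RNA per cell cannot be told apart.

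Calcium that enters a dendritic spine through glutamate receptors binds calmodulin, and calcium-loaded calmodulin switches on the CaM kinases and the phosphatase calcineurin. CaMKII, a holoenzyme built from alpha, beta, gamma and delta subunits, phosphorylates itself and then stays active after calcium has fallen, a property tied to long-term potentiation, the lasting strengthening of synapses. Calcineurin has a higher affinity for calcium and calmodulin, opposes the kinases and takes part in long-term depression, while cAMP releases the catalytic subunit of protein kinase A (PKA). CaMKIV and PKA phosphorylate CREB in the nucleus, and calcineurin dephosphorylates the CRTC coactivators so that they can enter the nucleus and join CREB at genes needed for long-term memory.

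Across the 22206 probe sets, the median difference was 0.00 for SAMP8 minus SAMR1 and 0.01 for TG-treated SAMP8 minus SAMP8, and 90% of the differences lay between -0.63 and 0.58 in the first and between -0.53 and 0.56 in the second. The averages ran from 2.39 to 19.93, and 10 probe sets, Camk2a among them, stood at the highest value in all 3 groups. Of 9 neuron markers, 1 was higher in SAMP8 than in SAMR1 past the limit and 1 lower with TG, which was Prox1 in both cases (values beside Camk2b). Wfs1, a marker of CA1 pyramidal neurons, stood at 10.79 in SAMR1, 11.23 in nontreated SAMP8 and 10.75 after TG. Of the others, Slc17a7 (a vesicular glutamate transporter) stood nearly level at 18.02 in SAMR1, 18.12 in nontreated SAMP8 and 18.11 after TG. Neurod6 (a transcription factor) was nearly level too, at 14.86, 14.85 and 14.88. Snap25 stood at 17.92, 18.23 and 18.06, Rbfox3 at 11.45, 11.56 and 11.77, Gad1 at 11.73, 12.17 and 11.82, and Gad2 at 11.04, 10.83 and 10.40. Gad2 was lower past the limit in TG-treated SAMP8 than in SAMR1 (-0.64). With TG 6 of the 9 had a lower average and 2 a higher one, with a median of -0.17. Between strains 6 had a higher and 2 a lower one, with a median of 0.11. The mean over the 9 was 14.09, 14.28 and 14.05, and that over 6 astrocyte markers 12.37, 12.69 and 12.59. Of 5 markers of neighbouring thalamus, 2 were lower with TG past the limit: Zic1 stood at 10.91, 11.47 and 9.56, and Prkcd at 10.85, 11.03 and 9.53. The other 3 stayed within it, with TG differences of -0.04 for Tcf7l2, 0.10 for Lef1 and 0.13 for Rora (the brightest of its 3 probe sets). The median of the 5 with TG was -0.04, and their mean was 8.61, 9.04 and 8.39. Endothelial markers were on average 8.08, 8.57 and 8.14, those of the choroid plexus 6.42, 6.87 and 6.77, those of oligodendrocytes 11.87, 11.57 and 11.88, those of microglia 7.32, 7.56 and 7.52, those of the meninges 7.71, 7.52 and 7.42 and those of the striatum 5.40, 5.46 and 5.18. Some of these means combine markers past the limit in opposite directions. With TG these were Ttr (0.72) and Kl (-0.79) of the choroid plexus. Between strains they were Aif1 (1.51), P2ry12 (0.86) and C1qa (-0.61) of microglia, and Igfbp2 (0.67), Lum (-0.60) and Col1a2 (-0.64) of the meninges. The part of these shifts in the results below was not tested.

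Camk2b, the beta subunit that ties CaMKII to actin filaments in spines, had the widest span of the 10 genes. The gene lies in GRCm38 on chromosome 11 from 5969629 to 6066357, and its averages were 17.68 in SAMR1, 18.50 in nontreated SAMP8 and 17.36 after TG. SAMP8 was thus the high group and TG-treated SAMP8 the low one, slightly under SAMR1. The strain difference of 0.82 is a level 1.77-fold higher in SAMP8, at the percentile 98.3 of all probe sets. The treatment difference of -1.14 is a level 2.20-fold lower with TG, at the percentile 0.1 of all probe sets and 0.3 of the 1000 probe sets closest in signal. Prox1, a transcription factor that marks granule neurons of the dentate gyrus, stood at 11.26 in SAMR1, 11.85 in nontreated SAMP8 and 11.00 after TG. Its differences were 0.59 between strains and -0.85 with TG. Whether the share of granule or CA1 neurons in the dissected tissue contributed to the Camk2b averages was not tested.

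The alpha subunit could not be followed in the same way. Camk2a, the main CaMKII subunit of forebrain neurons, on chromosome 18 from 60925307 to 60988152, was listed at 19.93 in SAMR1, 19.93 in nontreated SAMP8 and 19.93 after TG. That is the highest value in the tables, so the equal averages at this ceiling do not show equal expression, and no difference above it could have been seen.

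The other CaMKII genes had smaller differences and another order of groups than Camk2b. Camk2d, the delta subunit, on chromosome 3 from 126595487 to 126846326, had averages of 14.38 in SAMR1, 14.22 in nontreated SAMP8 and 13.97 after TG, with differences of -0.16 and -0.25. Camk2g, the gamma subunit, on chromosome 14 from 20734873 to 20794157, had averages of 11.82, 11.95 and 12.15, with differences of 0.13 and 0.20. The averages of Camk2d thus descended, and those of Camk2g ascended, from SAMR1 through SAMP8 to TG-treated SAMP8, all within the 1.5-fold limit. The strain differences of both depend on the scaling: after quantile normalization of the averages the difference of Camk2g turned to -0.03 and that of Camk2d moved to -0.27.

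**Figure D1:**
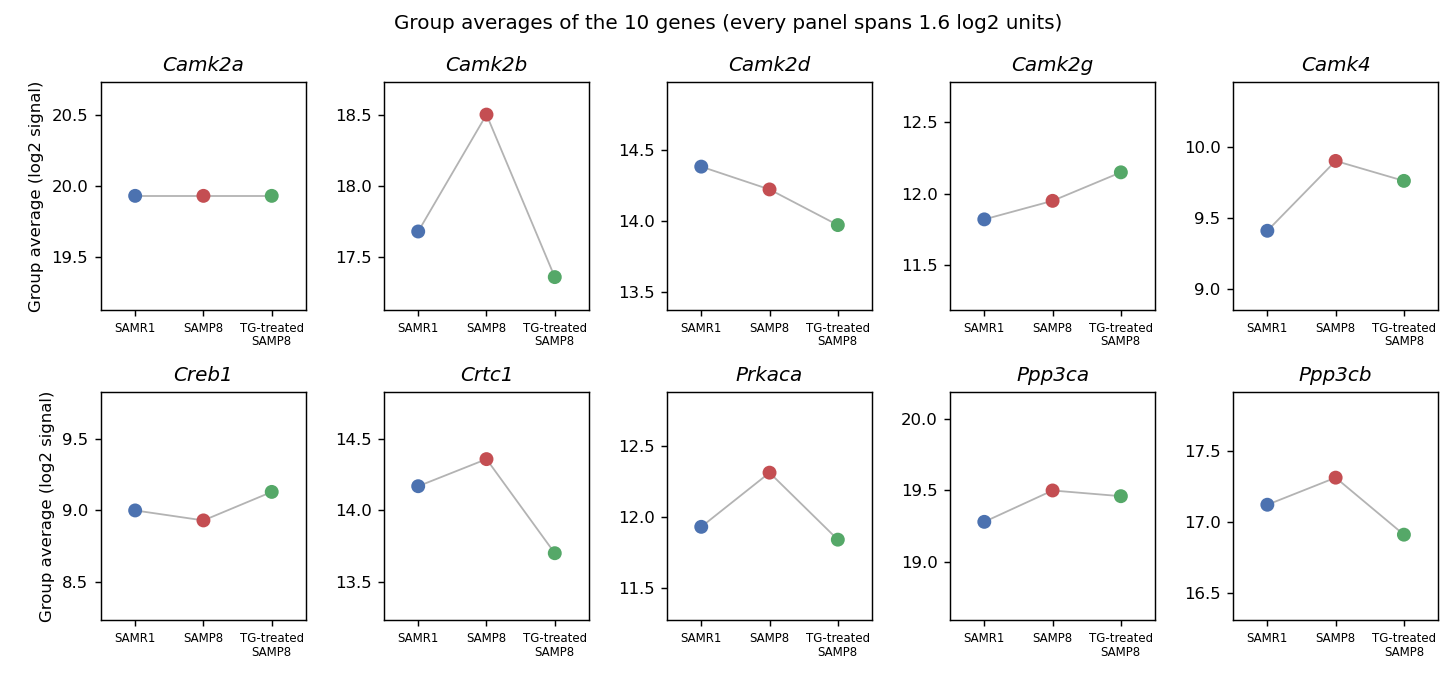
The authors' group averages of the 10 genes in log2 signal (vertical axis, each panel spanning the same range) for SAMR1, SAMP8 and TG-treated SAMP8, 1 point per group and no error since 1 average is given. Camk2b peaks in SAMP8 at 18.50, Crtc1 has its lowest average with TG at 13.70, and Camk2a lies at 19.93 in every group.

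Camk4, the nuclear CaM kinase that phosphorylates CREB, had its lowest average in SAMR1. The gene lies on chromosome 18 (32934941 to 33195767), and its averages were 9.41 in SAMR1, 9.90 in nontreated SAMP8 and 9.76 after TG. The strain difference of 0.49 stayed under the limit at 1.40-fold and lay at the percentile 92.2 of all probe sets, or 86.2 of those of like signal, and the treatment difference was -0.14. TG-treated SAMP8 remained above SAMR1 by 0.35.

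Prkaca, the catalytic subunit of PKA, was highest in SAMP8 and about level in the other groups. Its position is chromosome 8, 83972978 to 83996444, and the averages were 11.93 in SAMR1, 12.31 in nontreated SAMP8 and 11.84 after TG. Its differences of 0.38 between strains (1.30-fold) and -0.47 with TG (1.39-fold) are at the percentiles 87.2 and 7.0 of all probe sets, and TG-treated SAMP8 minus SAMR1 was -0.09. The 1000 probe sets closest in signal to Prkaca had a median strain difference of 0.12, and after centring on them the difference was 0.26.

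The calcineurin subunits were also highest in SAMP8, by smaller margins. Ppp3cb, the beta catalytic subunit, on chromosome 14 from 20499364 to 20546573, had averages of 17.12 in SAMR1, 17.31 in nontreated SAMP8 and 16.91 after TG. The treatment difference of -0.40 (1.32-fold lower) was larger in size than the strain difference of 0.19. Ppp3ca, the alpha catalytic subunit that prevails in brain, on chromosome 3 from 136669714 to 136937727, stood at 19.28, 19.50 and 19.46, with differences of 0.22 and -0.04. These averages are close to the highest value in the tables, 19.93.

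Crtc1, the coactivator that calcineurin sends to the nucleus, was the other gene past the limit with TG. It lies on chromosome 8 from 70382352 to 70439702, and its averages were 14.17 in SAMR1, 14.36 in nontreated SAMP8 and 13.70 after TG. The strain difference was 0.19, and the treatment difference of -0.66 is a level 1.58-fold lower with TG, at the percentile 2.4 both of all probe sets and of those of like signal. TG-treated SAMP8 was lower than SAMR1 as well, by 1.39-fold (-0.47), the widest difference between those groups among the 10 genes. Creb1, the transcription factor itself, on chromosome 1 from 64532794 to 64604548, had averages of 9.00 in SAMR1, 8.93 in nontreated SAMP8 and 9.13 after TG. Its 3 averages spanned 0.20, the smallest span of the genes below the ceiling.

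**Figure D2:**
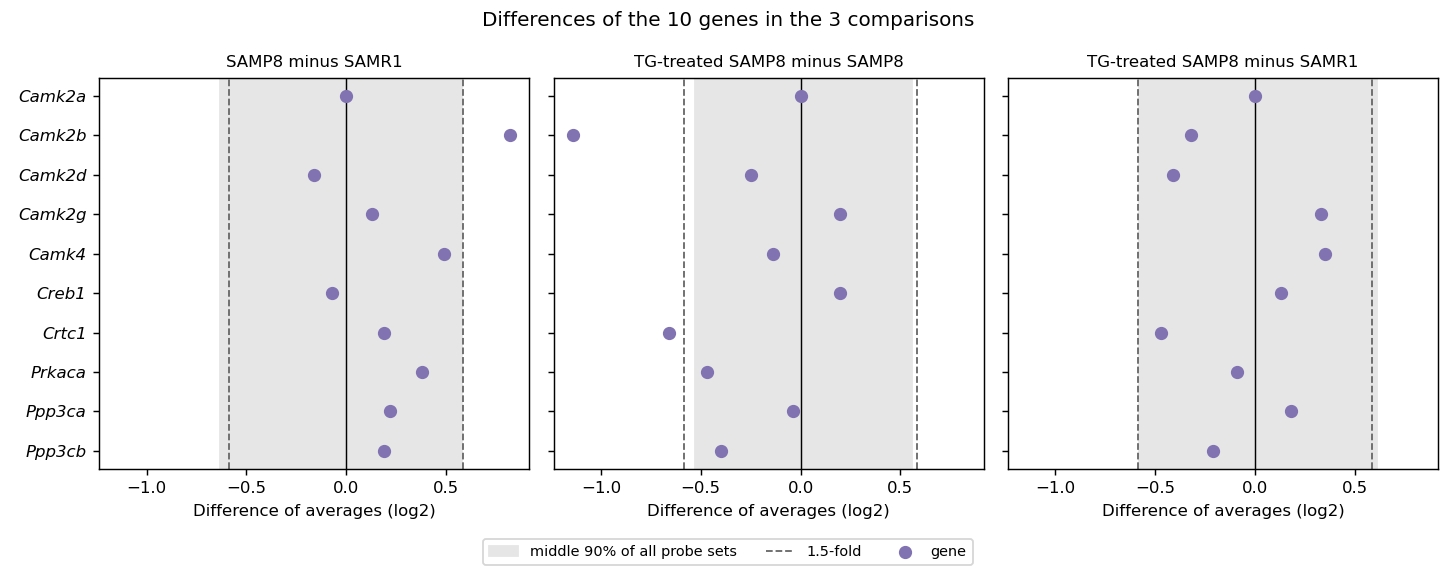
Differences of the authors' averages in log2 units (horizontal axis) for the 10 genes in 3 comparisons, with the middle 90% of all 22206 probe sets shaded and the 1.5-fold limits dashed. Camk2b lies outside the shaded range on the right in SAMP8 minus SAMR1 (0.82) and on the left with TG (-1.14), where Crtc1 (-0.66) is also outside.

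Counted together, 7 of the 10 genes had a higher average in SAMP8 than in SAMR1, 2 a lower one and 1 an equal one. Their median strain difference was 0.19 against 0.00 over all probe sets. Past the 1.5-fold limit, 1 gene was higher in SAMP8 (Camk2b), where 5.00% of all probe sets were, and 0 were lower, where 6.08% were. At a limit of 1.2-fold (0.263 on the log2 scale), the genes higher in SAMP8 were Camk2b, Camk4 and Prkaca, 3 of 10 against 20.4% of all probe sets, with 0 lower against 20.4%. The shares past either limit are thus near those of the whole table, given 10 genes, and the median stands beside that of the probe sets of like signal, whose own strain difference had a median of 0.09 to 0.14 near these genes.

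With TG, 2 of the 10 genes had a higher average than nontreated SAMP8, 7 a lower one and 1 an equal one. The median was -0.20 against 0.01 over all probe sets, and the probe sets of like signal had medians of -0.07 to -0.05. Past the 1.5-fold limit 2 genes were lower with TG (Camk2b and Crtc1), against 3.74% of all probe sets, and 0 were higher, against 4.48%. At 1.2-fold, Prkaca and Ppp3cb joined them, 4 of 10 against 18.5%, and 0 were higher against 19.6%. Camk2d at -0.25 stood just inside the lower limit.

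Against SAMR1, the averages of the 10 genes in TG-treated SAMP8 were all within the limit. Past 1.5-fold 0 of 10 were higher in TG-treated SAMP8 than in SAMR1 and 0 lower, where 5.62% and 4.83% of all probe sets were. The differences ran from -0.47 for Crtc1 to 0.35 for Camk4. For Camk2b the difference was -0.32, a level 1.25-fold lower with TG than in SAMR1.

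**Figure D3:**
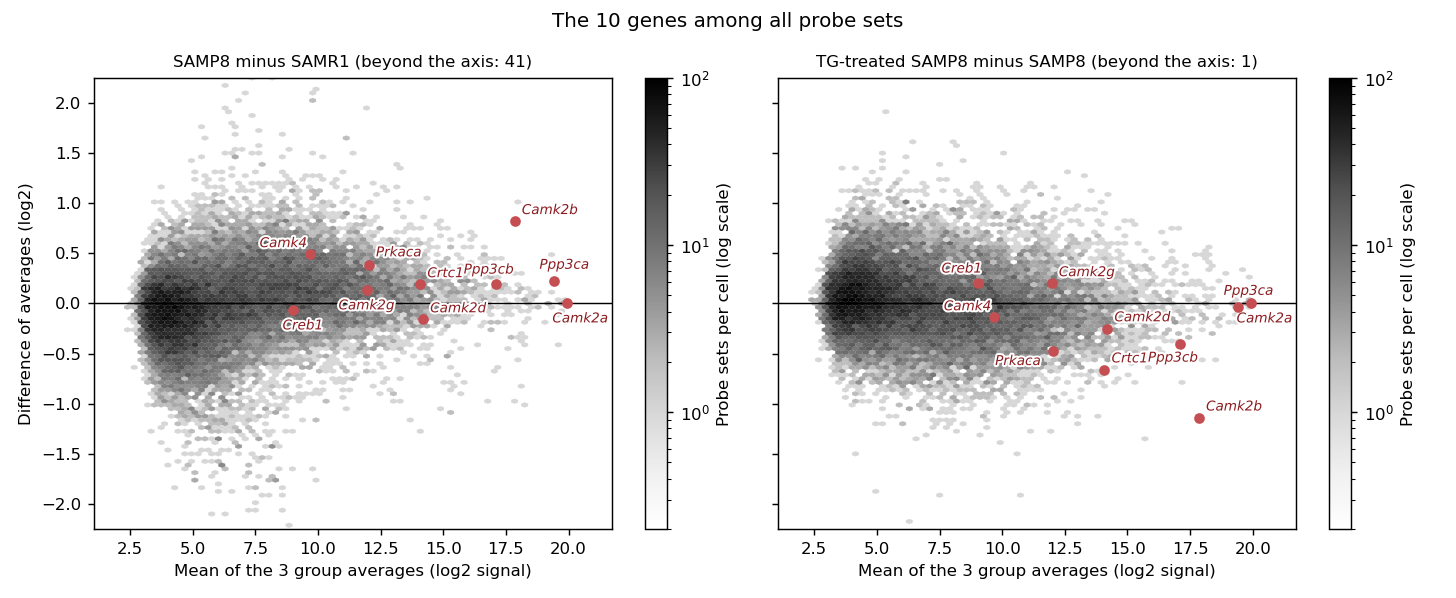
Difference of the authors' averages (vertical axis, log2) against the mean of the 3 averages (horizontal axis, log2 signal), with all probe sets in grey by density on a log scale and the 10 genes in red. Camk2b (0.82 between strains, -1.14 with TG) lies at the edge of the cloud among bright probe sets, and 41 probe sets in the left panel and 1 in the right lie beyond the vertical axis.

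The rest of the pathway was followed through 9 lists by role with 97 genes, of which 93 had a probe set with that symbol alone (Pde4d, Rcan3, Creb5 and Rps6ka4 share theirs with another symbol). Between strains 12 of the 93 were higher in SAMP8 past 1.5-fold and 0 lower, with a median of 0.12. With TG 5 were higher and 4 lower, with a median of -0.01. In TG-treated SAMP8 against SAMR1, 12 were higher and 1 lower, with a median of 0.09. These counts stand beside 5.00% and 6.08% of all probe sets between strains and 4.48% and 3.74% with TG. In TG-treated SAMP8 against SAMR1 the shares were 5.62% and 4.83%.

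Among the genes of calmodulin, the calcium sensor shared by the kinases and calcineurin, Calm2 and Calm3 had no common order of groups, while a protein that holds calmodulin in reserve was higher in each step. The genes named in this and the next 3 paragraphs without passing the limit were chosen for their role after their values were seen. Calm2 stood at 19.60 in SAMR1, 19.49 in nontreated SAMP8 and 19.63 after TG, and Calm3 at 19.00, 19.47 and 19.28 in the same order. SAMP8 was thus lowest for the former and highest for the latter, and these averages are near the ceiling. Nrgn, neurogranin, which binds calmodulin at low calcium in dendrites, stood at 14.07 in SAMR1, 14.90 in nontreated SAMP8 and 15.74 after TG. It was 1.78-fold higher in SAMP8 than in SAMR1 (0.83) and again 1.79-fold higher with TG (0.84), so that TG-treated SAMP8 lay 3.18-fold above SAMR1. This was the largest distance between those groups among the 93 related genes, and it did not follow the pattern of Camk2b. Of the 8 genes on this list 1 was past the limit between strains and 1 with TG, Nrgn both times. In TG-treated SAMP8 2 were higher past it than in SAMR1. Of all probe sets 5.00% were higher past it between strains, 4.48% with TG and 5.62% in TG-treated SAMP8 against SAMR1.

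None of the 10 relatives and inhibitors of the CaM kinases was past 1.5-fold in either comparison, with medians of 0.04 between strains and -0.16 with TG. The widest difference was that of Camk1, just short of the limit at 1.48-fold higher with TG (9.92 against 9.35). Camk2n1, an inhibitor protein of CaMKII, stood at 11.25 in SAMR1, 11.68 in nontreated SAMP8 and 11.74 after TG. Camk2n2, the related inhibitor, stood at 8.02, 8.35 and 8.01. Camkk1, a kinase that activates CaMKI and CaMKIV, stood at 11.30, 11.58 and 11.16, with differences of 0.28 and -0.42.

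The 12 PKA subunits, inhibitors and anchors had higher averages in SAMP8 than in SAMR1, where 49.5% of all probe sets were higher. The differences ran from 0.01 to 0.80, with a median of 0.27. Probe sets close in signal to the 10 genes had median strain differences of 0.09 to 0.14. Pkig (0.01), Akap11 (0.04) and Prkar1a (0.06) lay under that range. Medians of like signal were not given for this list. Past the limit were 3 of the 12, against 5.00% of all probe sets. The smallest difference of the 12, 0.01 for Pkig, is no larger than the rounding of the averages allows. The 3 past the limit were anchoring proteins that hold PKA near its substrates. Akap7 stood at 11.24 in SAMR1 and 12.04 in SAMP8, and Akap12 at 5.86 and 6.66. Akap5, which also binds calcineurin at the postsynaptic membrane, stood at 8.92 and 9.53. With TG the list had no common direction, 6 higher, 5 lower and 1 equal. Prkar2b, a regulatory subunit abundant in brain, was 1.57-fold lower with TG at 9.42 against 10.07, after 9.80 in SAMR1. Prkacb, the other main catalytic subunit, did not share the order of Prkaca and stood at 13.12, 13.39 and 13.59. Among the cAMP phosphodiesterases 1 of 9 was past the limit, Pde7b, at 7.52 in SAMP8 and 6.91 with TG (-0.61). Of all probe sets 3.74% were lower past it with TG.

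The remaining calcineurin subunits, the inhibitors of calcineurin and the NFAT transcription factors stayed within 1.5-fold in both comparisons, 11 of 11. Their differences ran from -0.25 to 0.49 between strains and from -0.39 to 0.35 with TG. Ppp3r1, the regulatory subunit that pairs with Ppp3ca and Ppp3cb, stood at 18.26 in SAMR1, 18.31 in nontreated SAMP8 and 18.15 after TG. Ppp3cc, another catalytic subunit, stood at 9.61, 9.47 and 9.62, and Ppp3r2, another regulatory subunit, at 3.97, 3.80 and 4.15. Both were lowest in SAMP8, unlike Ppp3ca, Ppp3cb and Ppp3r1. Of 8 genes of protein phosphatase 1, which calcineurin frees from inhibition, 1 was past the limit between strains and 0 with TG. Of all probe sets 5.00% were higher past it between strains, and with TG 4.48% were higher and 3.74% lower. The gene past the limit, Ppp1r1a, encodes inhibitor-1, whose action needs phosphorylation by PKA and ends with dephosphorylation by calcineurin. Its averages were 9.14 in SAMR1, 10.41 in nontreated SAMP8 and 10.56 after TG, a strain difference of 2.41-fold (1.27) at the percentile 99.6 of all probe sets, and 0.15 with TG.

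Relatives, coactivators and regulators of CREB were mostly within the limit. Between strains 1 of 11 was past it, where 5.00% of all probe sets were higher past it. This was Sik2, a salt-inducible kinase that keeps CRTCs in the cytoplasm. It stood at 7.84 in SAMR1, 8.58 in SAMP8 (0.74) and 8.41 with TG. With TG 9 of the 11 had a lower average and 2 a higher one, where 48.3% of all probe sets were lower and 50.0% higher. The median was -0.15, and none was past 1.5-fold. A further list held 9 other kinases that reach CREB, most of them of the ERK, RSK and MSK branch. Past the limit with TG 1 was lower, against 3.74% of all probe sets, and 1 higher, against 4.48%. Rps6ka2 was lower at 8.17 against 8.81 (1.56-fold). Mapkapk2, which is not an ERK, RSK or MSK kinase, was higher at 4.98 against 4.27 (1.64-fold). The median of this list with TG was -0.24.

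CREB target genes were higher in SAMP8 than in SAMR1 past the limit in 6 of 15 cases, where 5.00% of all probe sets were. Past it 0 were lower, where 6.08% of all probe sets were, and the median was 0.26. The 4 with the widest differences were Nr4a1, a nuclear receptor induced by activity, at 7.78 in SAMR1 and 8.80 in SAMP8, Egr1 at 11.75 and 12.58, Dusp1 at 8.86 and 9.66, and Vgf, a secreted peptide precursor, at 7.11 and 7.85. With TG 12 of the 15 had a higher average than nontreated SAMP8, where 50.0% of all probe sets had, and the median was 0.37. Past the limit 3 were higher, against 4.48% of all probe sets: Sst (11.31 to 12.00), Nptx2 (6.53 to 7.20) and Vgf (7.85 to 8.50). Bdnf, the neurotrophin gene whose activity promoter is a classical CREB target, was the 1 past the limit in the other direction. It stood at 8.76 in SAMR1, 9.16 in nontreated SAMP8 and 8.42 after TG, 1.67-fold lower with TG. Its average was highest in SAMP8 and lowest in TG-treated SAMP8, and 3 averages are too few points to link it with other genes. In TG-treated SAMP8 against SAMR1, 7 of the 15 were higher past the limit and 0 lower, where 5.62% and 4.83% of all probe sets were. The median of that comparison was 0.57. Nr4a1 and Egr1 are also immediate early genes of neuronal activity.

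**Figure D4:**
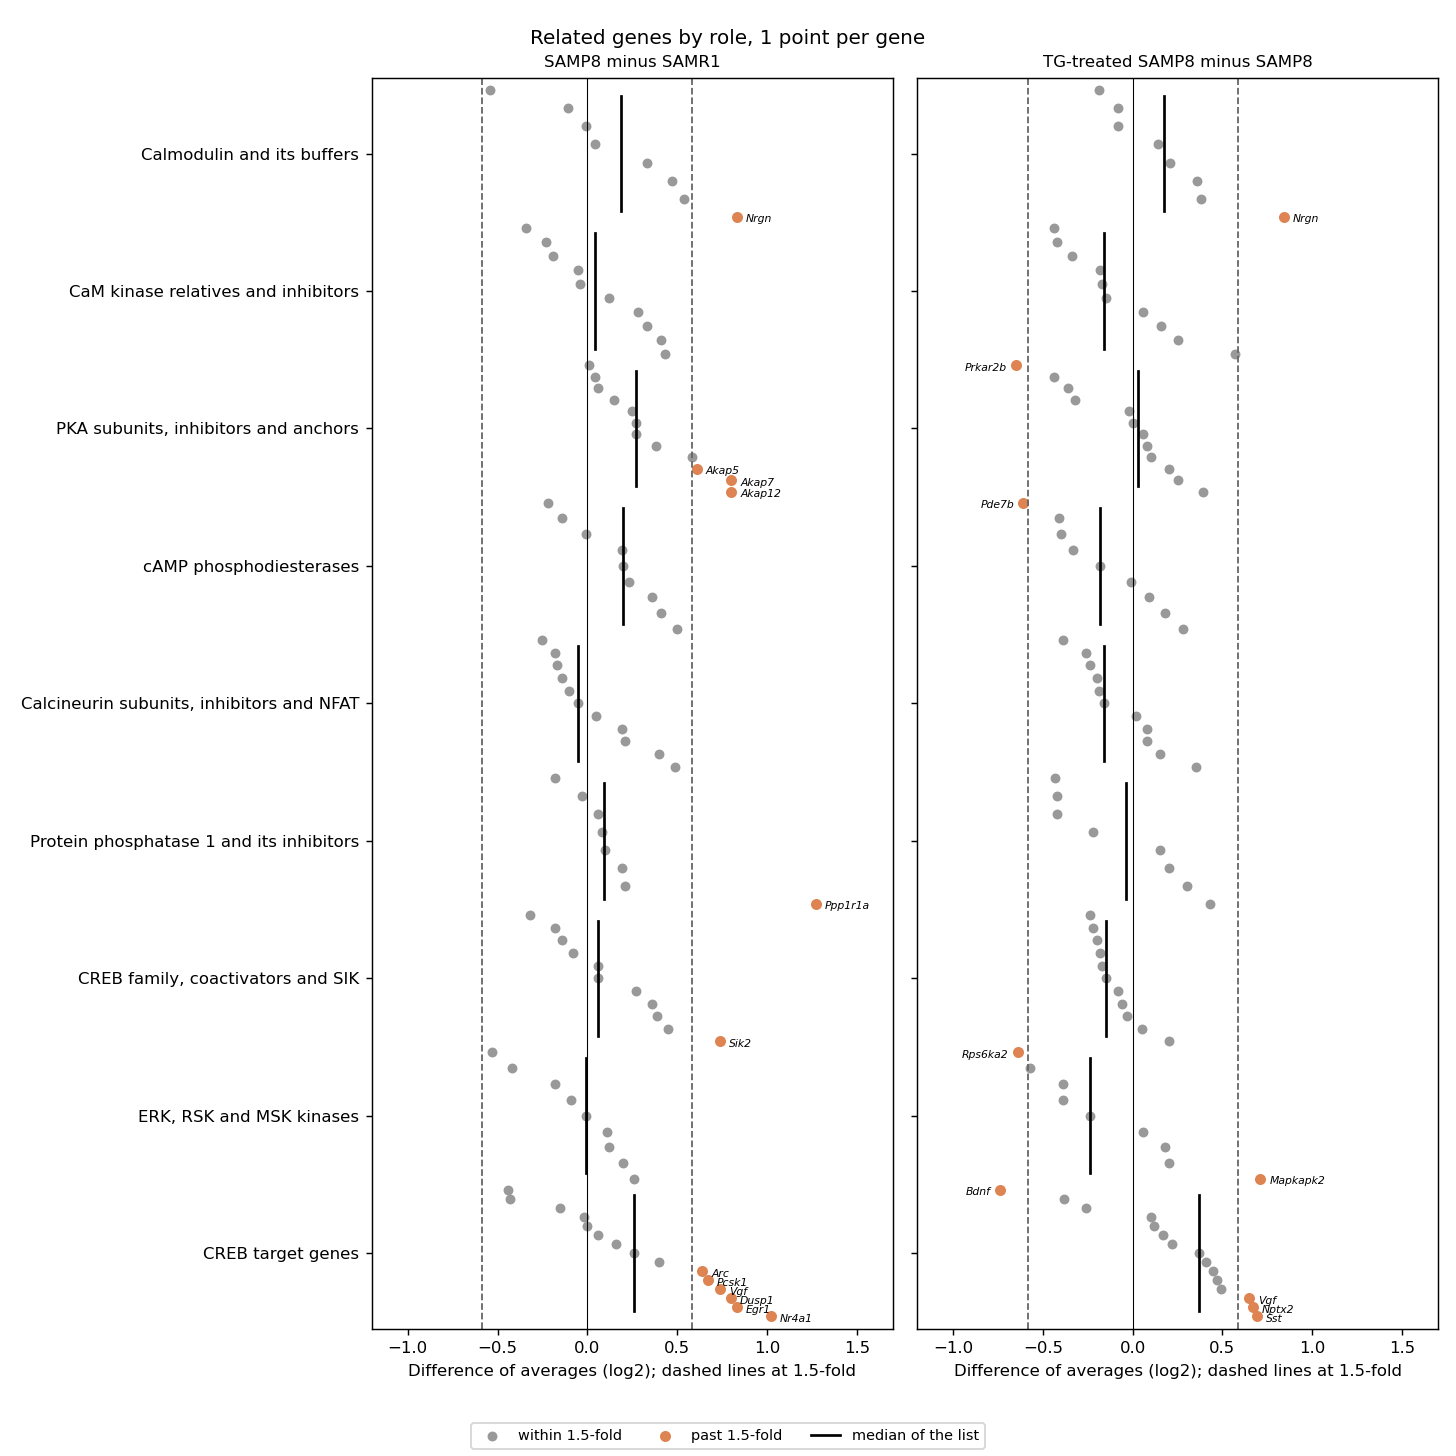
Differences of the authors' averages in log2 units (horizontal axis) for 93 related genes in 9 lists by role, SAMP8 minus SAMR1 on the left and TG-treated SAMP8 minus SAMP8 on the right, with orange points past 1.5-fold and a black bar at each list's median. Between strains 12 genes are past the limit and all lie on the right, with 6 of them CREB targets, and with TG 5 lie on the right and 4 on the left.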

How the data were processed

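Array intensities were summarised by the authors with SST-RMA in TAC (4.0.2 in the methods, 4.0.1 in the design text) on the mm10 (GRCm38) annotation. The 2 deposited tables give group averages as log2 signal with 2 decimals, and the authors' fold changes, p-values and adjusted p-values, which were not used. How the software averages 3 arrays was not given in the sources used here. The SAMP8 averages were equal in both tables for all 22206 probe sets. Sample records attach a description of a macrophage line, and the design text speaks of duplicate RNA, whereas 3 arrays per group are recorded.

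Differences of averages were computed in Python 3.11.15 (numpy 2.4.6, pandas 2.3.3) and placed as percentiles among all probe sets and among the 1000 closest in mean signal. Rounding can move a difference by up to 0.01. Of a gene with several probe sets the brightest was used. From the role lists, genes past 1.5-fold were named, at most 4 per list and comparison. The code was tested on simulated data. Members, lists and limits were chosen with earlier results of these data known. Gene positions are RefSeq's for GRCm38.p6. Values per array were not analysed here, and their number limits precision. Alternative limits, scalings and filters are given in the closing section.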

Additional observations from a re-analysis of the deposited data

How the results depend on the processing

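No paired analysis was possible because the tables used hold 1 average per group, and for the same reason no replicate could be left out and no spread given. With the limit at 1.2-fold, the counts of the 10 genes were 3 higher between strains and 4 lower with TG. In TG-treated SAMP8 against SAMR1 they were 2 higher and 3 lower. Those of the 93 related genes were 33 higher and 7 lower between strains and 18 higher and 21 lower with TG. In TG-treated SAMP8 against SAMR1 they were 30 higher and 19 lower. Of all probe sets, 20.4% were higher and 20.4% lower at 1.2-fold between strains, and 19.6% and 18.5% with TG. In TG-treated SAMP8 against SAMR1 the shares were 20% and 20.5%. At 2-fold, 0 of the 10 were higher between strains and 1 was lower with TG (Camk2b). Of the related genes 2 were higher between strains, and 0 higher and 0 lower with TG. In TG-treated SAMP8 against SAMR1, 6 of them were higher and 0 lower. Of all probe sets, 0.838% were higher and 1.47% lower at 2-fold between strains, and 0.473% and 0.342% with TG. In TG-treated SAMP8 against SAMR1 the shares were 1.13% and 0.712%. With quantile normalized averages the related genes gave 1 lower between strains, 2 lower with TG and 2 lower in TG-treated SAMP8 against SAMR1, and with differences centred on probe sets of like signal 1 lower between strains and 3 lower in TG-treated SAMP8 against SAMR1. Under the 3 rescalings (median centring, quantile normalization, centring on like signal), 80 of 90 differences of single genes moved by no more than 0.1 and 10 by more, 9 of these in SAMP8 minus SAMR1, and none past 1.5-fold changed sign; in SAMP8 minus SAMR1, Creb1 went from -0.07 to -0.20 or -0.21 and Camk4 from 0.49 to 0.34 or 0.36 under the last 2. Dropping the dimmest 25% of probe sets removed none of the 10 genes, and matching any symbol in an entry changed none of their counts. The planned comparison of the proteins was not run, as their sequences were not used here. Averages at or near 19.93 (Camk2a, Ppp3ca) may be limited by the ceiling of the scale.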
